A study of Mus musculus with 6 samples.

Results

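Nuclear genes for mitochondrial respiration and for the mitochondrial ribosome were compared in adipose stromal cells (ASCs), the fibroblast-like progenitors of fat. The genes were the rows of the authors' comparison table of perigonadal against subcutaneous ASCs whose symbol began with 1 of 11 prefixes: Nduf, Cox and a digit, Atp5, Uqcr, Sdh and a letter from a to d, Mrpl, Mrps, Timm, Tomm, Acad or Etf, with the brown-fat gene Cox8b left out. They numbered 15, all of them among the 3541 rows of that table that could be joined to the value table of 23531 probe sets. Cells came from perigonadal fat (PG), the visceral depot beside the gonads, or from subcutaneous fat (SC) of male mice, with 3 pools of cells per depot and 1 Affymetrix array per pool. In both depots the cells had been sorted magnetically, straight after enzymatic digestion and without culture, as lacking CD45 (a leukocyte protein) and CD31 (an endothelial protein) and carrying Sca1 (a progenitor protein). The labels give 6 animals and independent pools. The labels state no strain, age or treatment of the mice, and they leave unsaid whether 6 is the number per pool or in all, or whether PG and SC pools of 1 number share animals.

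The respiratory chain passes electrons from NADH and succinate to oxygen through complexes I to IV of the inner mitochondrial membrane, and ATP synthase uses the proton gradient that results. Most subunits are encoded in the nucleus and imported, while the mitochondrial genome encodes a small core of them, translated by a dedicated mitochondrial ribosome. White fat progenitors hold few mitochondria compared with brown fat cells, and mitochondria are remodelled as progenitors become adipocytes.

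The membership was narrower than the prefixes allow. The 15 genes held 3 complex I subunits, 4 genes named for complex IV subunits, 3 assembly factors, 4 genes named for the small subunit of the mitochondrial ribosome (Mrps), and Etf1. No row used here began with 6 of the prefixes, those of ATP synthase (Atp5), complex III (Uqcr), the large ribosomal subunit (Mrpl), the import channels (Timm and Tomm) and acyl-CoA dehydrogenases (Acad), so the set holds no import channel. Etf1 entered through its first letters alone: it encodes a cytosolic translation release factor and not an electron transfer flavoprotein, and it is described apart. The members were chosen by measured values, since the table holds only rows selected on an unadjusted p-value below 0.05 in the methods' paired t-test of these same arrays, and other probe sets had no gene name here. The direction and size of each member's depot difference are therefore given as a description, with no test. By p-value in the authors' deposited table, the members nearest to that limit were Cox5a at 0.046, Etf1 at 0.0433 and Mrps36 at 0.0413, and the farthest was Sdhaf1 at 0.00527. Probe sets just outside the limit carry no name here.

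By their median size, depot differences of these genes were smaller than those of the table rows, and they went both ways. Levels are the authors' normalized intensities on a linear scale, and differences are PG minus SC of log2(intensity + 1), a scale that understates changes of dim probe sets. Mean levels were higher in PG for 6 and lower for 9 of the 15. Each kept its sign in 3 of 3 pool pairs, but so did all 3541 table rows with values, which were chosen by a paired test. Over all 23531 probe sets 9792 did. The median difference of the members was -0.23. The median was -0.13 over the 3541 table rows with values and -0.01 over all probe sets. The lowest difference was -0.69, and the median absolute difference was 0.28. It was 0.37 over the table rows with values and 0.11 over all probe sets. PG and SC pools did not overlap for 9 of the 15. Over all probe sets 25.1% did not overlap, and over the table rows 81.3%. In limma, fitted over all 23531 probe sets with the pool number as a block and adjusted by Benjamini-Hochberg to a threshold of 0.05, 9.51% of all probe sets and 51.7% of the table rows were called. Among the 15 members, 1 was called higher, against 4.05% of all probe sets, and 2 were called lower (Mrps26 and Mrps18a), against 5.47%. The other 12 were not called. Nothing is read from these counts, since the same contrast chose the members. In bulk RNA of pooled cells, fewer cells of a type and less RNA per cell cannot be told apart.

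**Figure D1:**
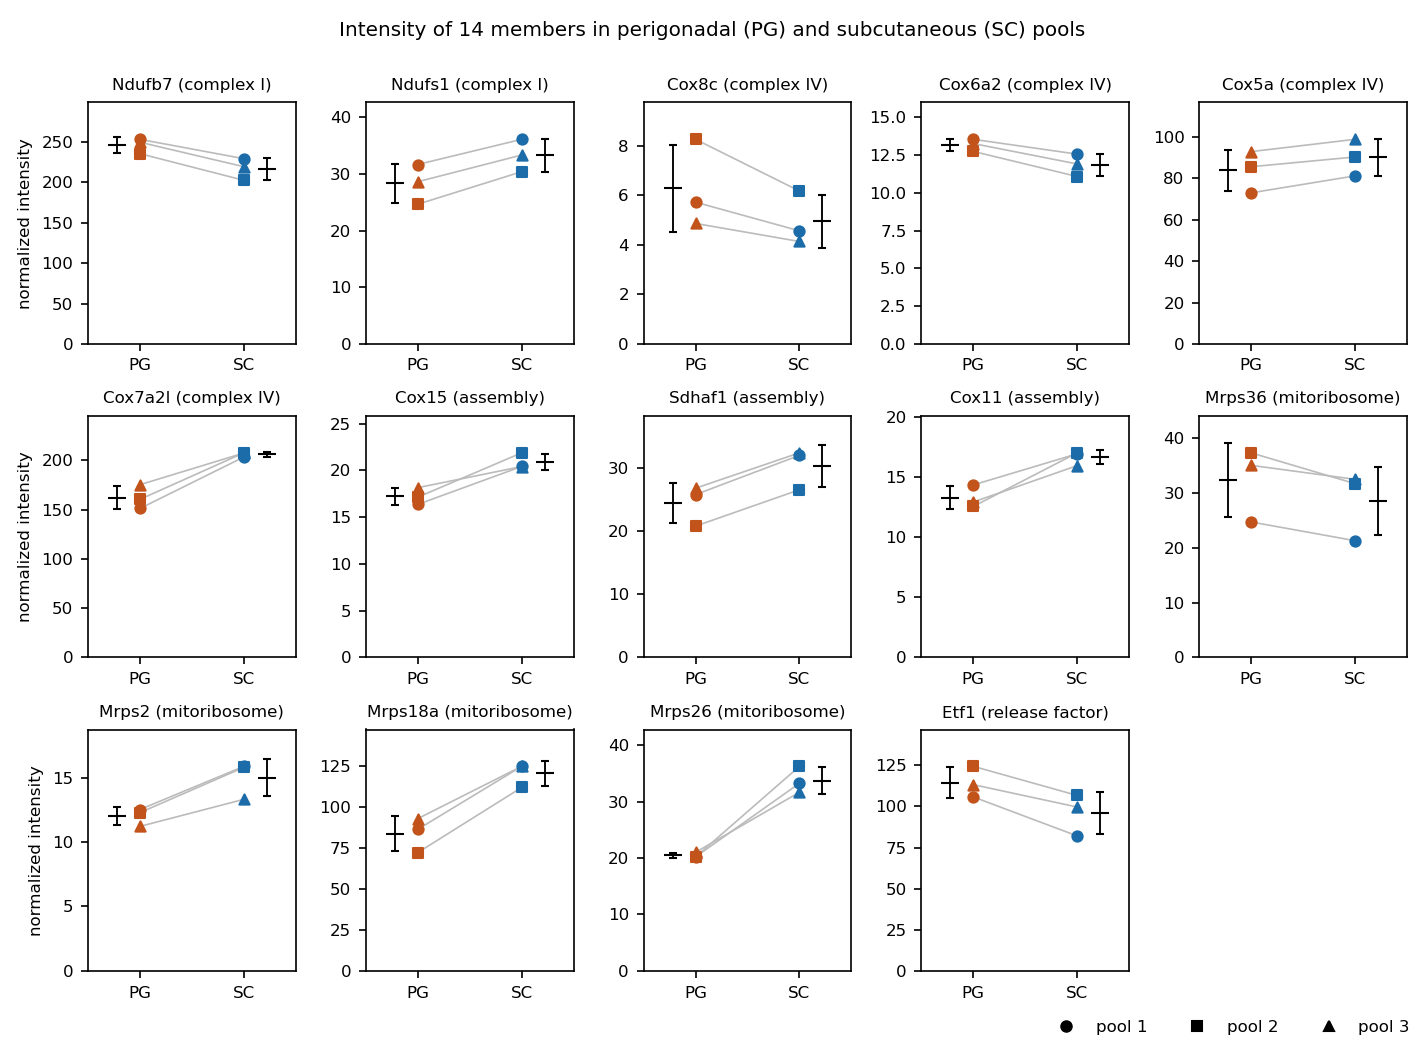
Normalized intensity (linear axis from 0) of 14 members in 3 PG pools (left) and 3 SC pools (right), with grey lines joining pools of 1 number and black bars for the mean ± SD of each depot. Lines run parallel in most panels, and the PG pools lie below all SC pools for Mrps26, Mrps18a and Cox7a2l among others.

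**Figure D2:**
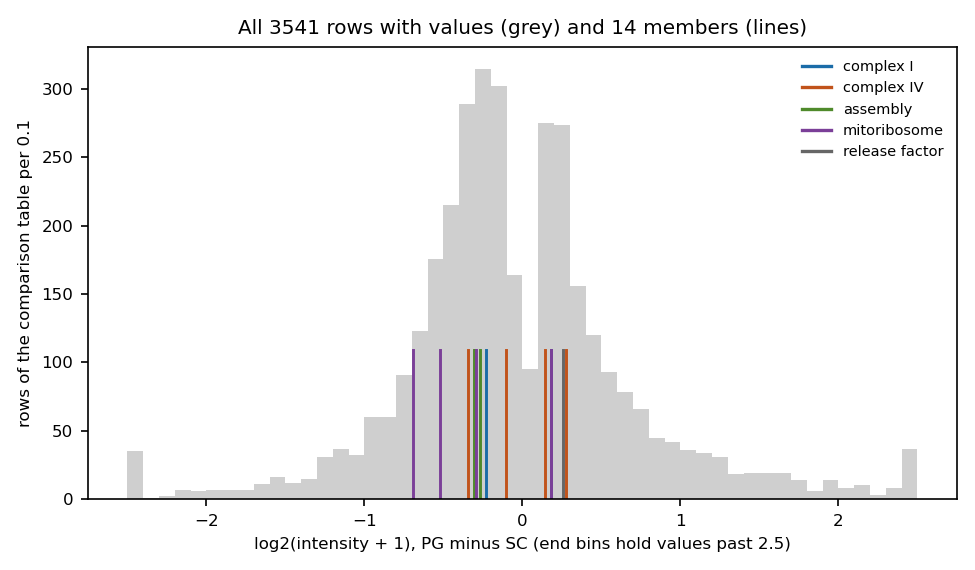
Number of comparison table rows per 0.1 of log2 difference (PG minus SC) for all 3541 rows with values in grey (values past 2.5 in the end bins), with a coloured line at the difference of each of 14 members. The lines lie between -0.69 for Mrps26 and 0.28 for Cox8c, outside the long tails of the table.

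The most negative differences lay among the Mrps genes, of which 3 of 4 had lower levels in PG and 2 were called. Mrps26 (transcript cluster 10476189, chromosome 2, band F1), a small-subunit protein, stood at 20.2, 20.2 and 21.0 in PG pools 1 to 3, against 33.3, 36.3 and 31.7 in SC pools 1 to 3. All PG pools lay close together and below every SC pool. Its means were 20.5 ± 0.471 in PG and 33.7 ± 2.33 in SC (SD, n = 3 each), a log2 difference of -0.69 ± 0.092 (SE), the lowest of the 15. Mrps18a (10445434, chromosome 17, band C), whose protein sits in the large subunit in structures of the mammalian mitochondrial ribosome despite its name, stood at 86.3, 72.2 and 92.9 in PG pools, against 125, 112 and 125 in SC pools. Pool 2 was the lowest in both depots, and the depots did not overlap. Its means were 83.8 ± 10.6 in PG and 120.4 ± 7.44 in SC (SD, n = 3 each), a log2 difference of -0.52 ± 0.089 (SE). Mrps18a was not called without pool pair 1 or 2, nor without SC pool 1 or SC pool 3, at differences between -0.52 and -0.47. In RefSeq, 7 of the 15 members overlap another gene, Mrps18a among them, with Rsph9, which had no row in the table.

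Mrps2 (10470547, chromosome 2, band A3), which belongs to the conserved core of the small subunit, had 12.5, 12.3 and 11.2 in PG pools, against 15.9, 15.8 and 13.3 in SC pools. Pool 3 was the lowest in each depot and the depots stood apart, by a log2 difference of -0.30 ± 0.086 (SE) that was not called. Mrps36 (10566514) ran the other way. Its protein, at first assigned to the ribosome, is known as a subunit of the 2-oxoglutarate dehydrogenase complex of the citric acid cycle. Its probe set stood at 24.7, 37.4 and 35.1 in PG pools, against 21.3, 31.7 and 32.5 in SC pools. The spread between pools of 1 depot was larger than the step between depots, with pool 1 low in both, and the log2 difference of 0.18 was not called. Without SC pool 1 and with no block it was -0.01. This probe set may not measure the Mrps36 gene alone. The gene lies on chromosome 13, but the 10 table rows with the nearest transcript cluster numbers, 5 on each side, all belonged to chromosome 7. RefSeq lists 3 Mrps36 pseudogenes, 2 of them on chromosome 7. For the other 14 members, at least 6 of these 10 neighbours lay on the gene's own chromosome. Which copy the probes match was not tested.

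Promoter sequences are shown for the 3 ribosomal genes that were lower in PG together, and for Ndufb7, a gene with higher PG levels that holds 1 of the same motifs. They are from RefSeq (GRCm38.p6), run from 250 bases before to 50 after the start site, 5′ to 3′ along the gene, and are chr2:130563507-130563806, plus strand for Mrps26, chr17:46110754-46111053, plus strand for Mrps18a, chr2:28467816-28468115, plus strand for Mrps2 and chr8:83566508-83566807, plus strand for Ndufb7. Capitals mark matches, on either strand, to GCGCA, any base and GCGC (the motif of NRF1), CCGGAAG (an ETS motif bound by GABPA), AAGGTCA (a motif of oestrogen-related receptors) or TATAAA (the TATA box). NRF1 and GABPA are known activators of nuclear genes for mitochondrial proteins.
Mrps26: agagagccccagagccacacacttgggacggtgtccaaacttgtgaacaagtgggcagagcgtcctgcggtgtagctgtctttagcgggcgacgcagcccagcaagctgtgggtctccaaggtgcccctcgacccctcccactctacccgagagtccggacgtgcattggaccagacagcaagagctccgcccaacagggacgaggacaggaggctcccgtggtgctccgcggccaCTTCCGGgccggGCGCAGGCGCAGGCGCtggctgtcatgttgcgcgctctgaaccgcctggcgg
Mrps18a: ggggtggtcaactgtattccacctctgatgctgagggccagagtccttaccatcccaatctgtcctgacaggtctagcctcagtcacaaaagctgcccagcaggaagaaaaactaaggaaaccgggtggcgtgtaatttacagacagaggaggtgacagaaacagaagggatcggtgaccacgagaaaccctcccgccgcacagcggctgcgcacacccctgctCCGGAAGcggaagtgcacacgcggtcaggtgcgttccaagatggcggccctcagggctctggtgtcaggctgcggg
Mrps2: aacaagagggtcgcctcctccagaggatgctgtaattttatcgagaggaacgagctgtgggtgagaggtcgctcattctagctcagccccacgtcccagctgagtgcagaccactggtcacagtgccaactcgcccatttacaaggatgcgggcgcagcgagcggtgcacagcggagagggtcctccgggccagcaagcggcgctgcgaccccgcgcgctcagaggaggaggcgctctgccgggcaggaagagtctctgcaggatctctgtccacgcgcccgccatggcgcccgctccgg
Ndufb7: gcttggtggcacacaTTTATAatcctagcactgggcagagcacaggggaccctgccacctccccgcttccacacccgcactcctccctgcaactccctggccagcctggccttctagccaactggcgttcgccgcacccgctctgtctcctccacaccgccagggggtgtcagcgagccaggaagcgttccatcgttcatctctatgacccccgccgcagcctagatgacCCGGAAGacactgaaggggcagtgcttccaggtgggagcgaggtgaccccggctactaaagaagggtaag

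The Mrps26 promoter held a pair of NRF1 matches that overlap each other, at bases -2 and 5 counted from the start site, and a GABPA match on the opposite strand at base -14. The GABPA motif stood at base -26 in Mrps18a and at base -20 in Ndufb7. The Mrps2 window held none of the 4 motifs. RefSeq's table held promoters for 10 of the 15 members, and the GABPA motif was in 5 of them (Cox15, Mrps18a, Mrps26, Ndufb7 and Sdhaf1), against 8.86% of all 32851 promoters in the table. The NRF1 motif was in 1 of 10 against 4.6% of all, the TATA box in 1 of 10 (on the opposite strand, far upstream in Ndufb7) against 13.6%, and the oestrogen-related receptor motif in 0 of 10 against 4.72%. Base composition differed as well, with a median of 61.4% G and C and 21 CpG sites in the members' promoters, against 52.7% and 7 over the table. The part of base composition in the motif shares was not tested. Genes with the GABPA motif were found on both sides: Ndufb7 was higher in PG, and Cox15, Mrps18a, Mrps26 and Sdhaf1 were lower. So were members whose promoters lacked it: Mrps36 was higher, and Cox11, Cox5a, Cox7a2l and Mrps2 were lower.

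Of complex I, the enzyme that takes electrons from NADH, Ndufs1 and Ndufb7 differed in direction, and neither was called. Ndufs1 (10355084, chromosome 1), the largest core subunit and carrier of several iron-sulphur clusters, had 31.6, 24.6 and 28.6 in PG pools, against 36.1, 30.4 and 33.3 in SC pools. PG pool 1 stood above SC pool 2, so the depots overlapped, but PG was lower in each pair. Its log2 difference of -0.23 ± 0.086 (SE) was not called. Ndufb7 (10573194, chromosome 8), an accessory subunit of the membrane arm, had 253, 236 and 249.8 in PG pools, against 229, 203 and 219 in SC pools. The depots did not overlap, and the ratio of means was 1.13. Its log2 difference of 0.18 ± 0.085 (SE) was not called.

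Among the genes named for complex IV, which passes electrons to oxygen, the widest gap was that of Cox7a2l (10453254, chromosome 17), a protein that joins complexes III and IV into supercomplexes. Its levels were 151, 160.5 and 175 in PG pools, against 204, 208 and 208 in SC pools. All 3 SC pools lay within a narrow band above PG. The ratio of means was 0.787, and the log2 difference of -0.35 ± 0.089 (SE) was not called with the pool block. It was called with no replicate block, with a pseudocount of 16, over the brighter probe sets alone, without pool pair 3 and without PG pool 3. Cox5a (10585706, chromosome 9, band B), a subunit of the nuclear-encoded shell found in all tissues, had 73.0, 85.7 and 93.0 in PG pools, against 81.3, 90.4 and 98.9 in SC pools. Pool number set the level more than depot did, and the log2 difference of -0.11 was not called.

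The other 2 genes of complex IV encode isoforms made mainly in other tissues. Cox6a2 (10568369, chromosome 7) is the heart and skeletal muscle isoform of subunit VIa. It had 13.5, 12.7 and 13.3 in PG pools, against 12.6, 11.1 and 11.9 in SC pools, which did not overlap by a narrow margin. The log2 difference was 0.14 ± 0.085 (SE), and not called. Of 5 skeletal muscle markers only Mylpf had a name here, with levels between 3.53 and 4.13 in PG and between 4.34 and 4.85 in SC. Cox8c (10397907, chromosome 12, band E), known as the testis isoform of subunit VIII, had 5.73, 8.27 and 4.87 in PG pools, against 4.57, 6.18 and 4.14 in SC pools. Pool 2 was the highest in both depots, and the depots overlapped. The median probe set of an array stood between 6.44 and 6.96, so Cox8c was in the dim part of the arrays, and its log2 difference of 0.28 shrank to 0.09 with a pseudocount of 16.

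All 3 assembly factors, proteins that build the complexes without staying in them, had lower levels in PG, and none was called. Cox11 (10380297, chromosome 11), which helps to insert copper into complex IV, had 14.3, 12.6 and 12.9 in PG pools, against 16.9, 17.0 and 15.95 in SC pools. The depots did not overlap, and the log2 difference was -0.31 ± 0.089 (SE). Cox15 (10467859, chromosome 19), which makes heme A for complex IV, had 16.4, 17.1 and 18.2 in PG pools, against 20.4, 21.9 and 20.4 in SC pools. These did not overlap either, at a log2 difference of -0.27 ± 0.089 (SE). Sdhaf1 (10561907, chromosome 7), which helps to insert iron-sulphur clusters into complex II, had 25.8, 20.8 and 26.8 in PG pools, against 32.0, 26.5 and 32.4 in SC pools. Pool 2 was low in both depots. PG pool 3 reached just above SC pool 2, and the differences within pairs were alike at -0.30, -0.34 and -0.27.

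Etf1 (10458213, chromosome 18, band B1), the cytosolic release factor that ends translation at stop codons, had 106, 124 and 113 in PG pools, against 82.1, 107 and 99.6 in SC pools. PG pool 1 fell within the SC range, and the log2 difference of 0.25 ± 0.089 (SE) was not called. Without it, the other 14 members had a median log2 difference of -0.25, with 5 higher and 9 lower mean levels.

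**Figure D3:**
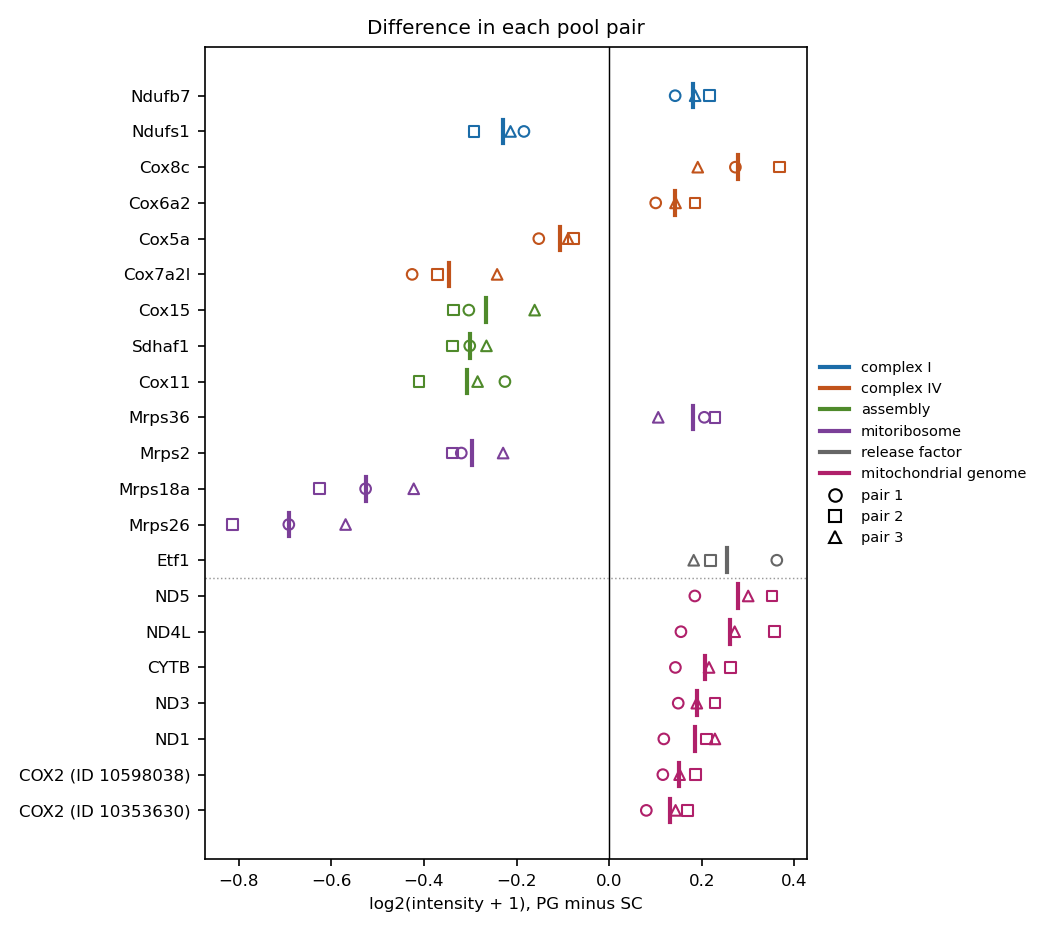
Log2 difference (PG minus SC) in each of 3 pool pairs (symbols) and their mean (bar) for 14 members, by class, and below the dotted line for 7 probe sets named for the mitochondrial genome. The 3 assembly factors and 3 of 4 Mrps genes (all but Mrps36) lie left of 0. Complex I and IV genes lie on both sides, and all 7 probe sets of the mitochondrial genome lie right of 0.

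Within a depot, the members varied little between pools. The median SD of log2 levels over the pools of a depot was 0.12 for the members, 0.11 for the table rows with values and 0.13 for all probe sets. It was lowest for Cox15 at 0.063 and highest for Mrps36 at 0.32. Within a member, PG and SC pools of 1 number mostly deviated the same way. Signs matched in 82.2% of the members' values, 69.6% over the table rows with values and 54.1% over all probe sets. The members did not all move alike: in PG pool 1 the deviation was 0.16 for Ndufs1 and -0.35 for Mrps36. Across the 15 members, which share arrays and are not independent, the deviations of same-numbered PG and SC pools from their depot means correlated (Pearson) at 0.89, 0.92 and 0.79 for pools 1, 2 and 3. The order of the 3 pools was the same in both depots for 9 of the 15. Over the table rows with values the correlations were 0.45, 0.51 and 0.40, and over all probe sets 0.17, 0.16 and 0.053. A paired comparison favours genes whose same-numbered pools move together, so the choice of the members acts on this measure, and no test is made of it.

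**Figure D4:**
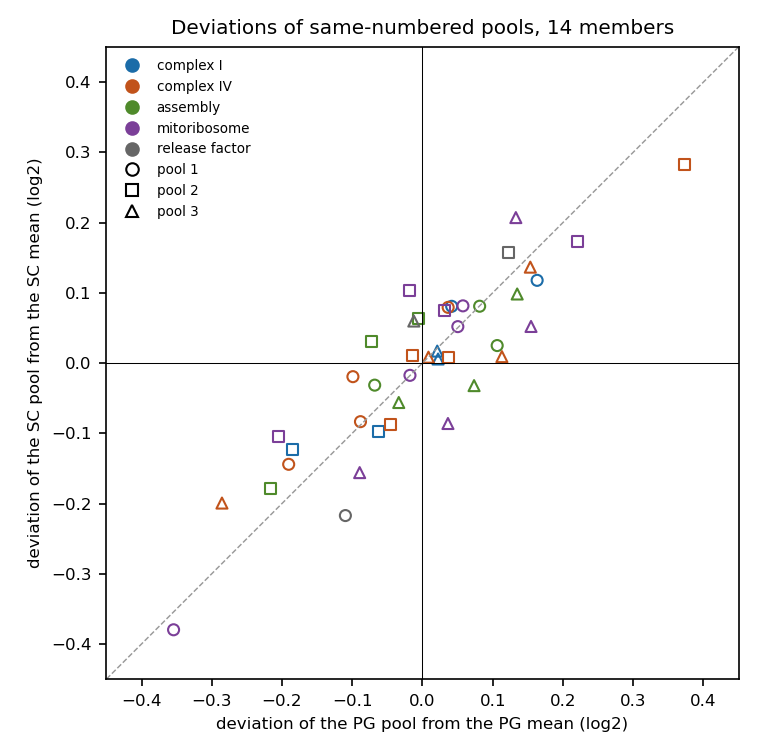
Deviation of each PG pool from the PG mean (x axis, log2) against that of the SC pool of the same number from the SC mean (y axis, log2), 3 points for each of 14 members, coloured by class. Points follow the dashed line of equal deviation, with Mrps36 in pool 1 at the lower left and Cox8c in pool 2 at the upper right.

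The nuclear genes were set beside the transcripts of the mitochondrial genome itself. Of its 13 protein-coding genes, 6 had a row in the table, through 7 probe sets, and these keep the names of the file. Levels of all 7 were higher in PG in 3 of 3 pairs, with a median log2 difference of 0.19. ND5, a complex I subunit, had 1081, 1187 and 1198 in PG pools, against 951, 929.6 and 972 in SC pools. Those pools did not overlap, and the log2 difference of 0.28 was the highest of the 7. CYTB, cytochrome b of complex III, had 1067, 1241 and 1216 in PG pools, against 966, 1034 and 1046 in SC pools. Here too every PG pool was above every SC pool. The complex I subunits ND1, ND3 and ND4L had log2 differences of 0.19, 0.19 and 0.26. The probe sets of COX2, a core subunit of complex IV, had log2 differences of 0.15 and 0.13.

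In limma 0 of these 7 probe sets was called, while all 7 were below an unadjusted p-value of 0.05 in the methods' paired t-test, which selected them. With a pseudocount of 16, limma called 3. They are transcripts of 1 genome, measured on the same arrays, and do not count as independent. Cluster numbers of ND4L (10353624) and of the COX2 probe set at 0.13 (10353630) fell among rows of chromosome 1, 9 of the 10 nearest in each case. Nuclear copies of mitochondrial DNA are known in mice, and which copy these probes match was not tested.

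**Figure D5:**
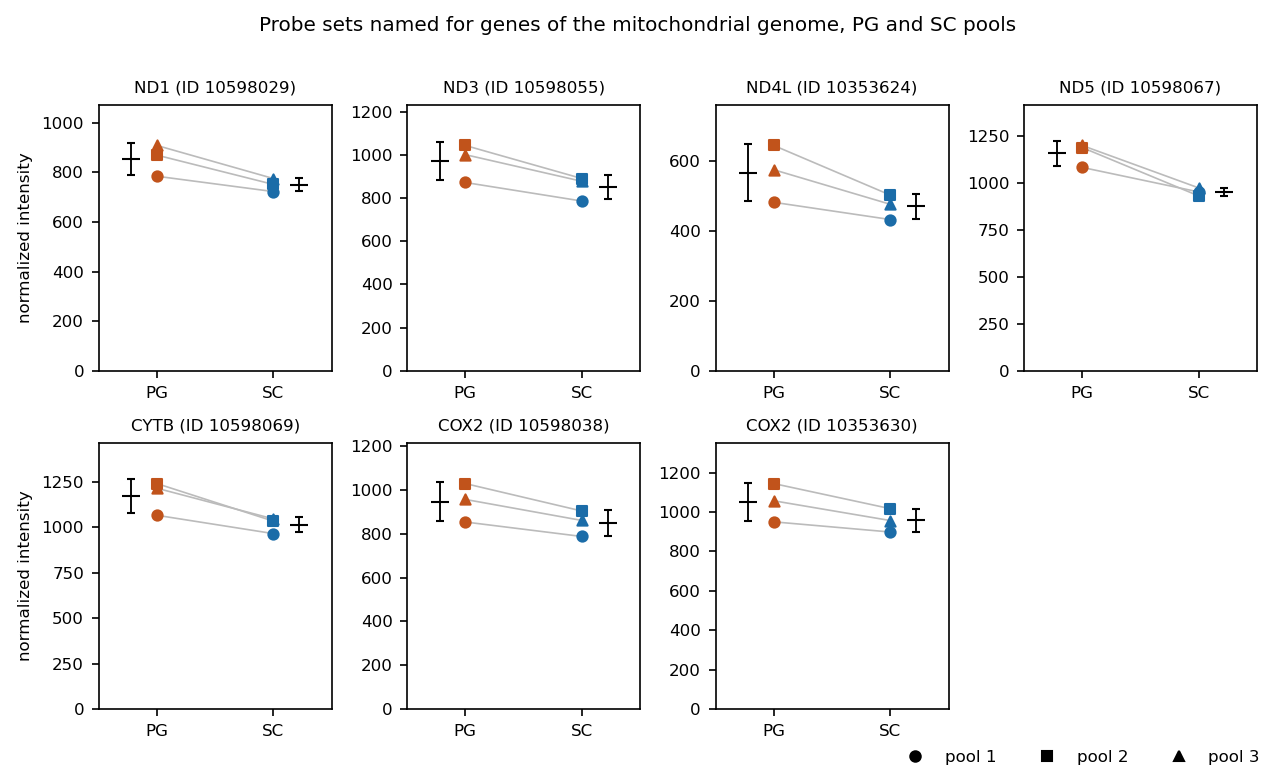
Normalized intensity (linear axis from 0) of the 7 probe sets named for genes of the mitochondrial genome in 3 PG pools (left) and 3 SC pools (right), with grey lines joining pools of 1 number and black bars for the mean ± SD. PG lies above SC in every pair, where all rows chosen by the paired test keep 1 sign over the pairs. Pool 1 is the lowest PG pool in each panel.

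Other nuclear genes of mitochondria were read from 8 lists of 184 genes in all, of which 17 had a row in the table. Of these 17, 3 were called higher and 5 lower in PG, and 9 were not called, with a median log2 difference of -0.19. Among all table rows with values 51.7% were called, and among all probe sets 9.51%. The same contrast chose these rows, so nothing is read from the counts. None of 15 regulators of mitochondrial biogenesis, such as Ppargc1a, Nrf1 and Tfam, had a row. The widest difference was that of Ucp2, an uncoupling protein of the inner membrane, with 21.5, 30.3 and 34.2 in PG pools, against 8.08, 7.03 and 8.95 in SC pools. The depots were far apart, at a log2 difference of 1.70. The voltage-dependent anion channel Vdac1 of the outer membrane was called higher, at a log2 difference of 0.43. Pdss1, which starts the side chain of coenzyme Q, was called higher too, at 0.37, but it was dim. It had 5.91, 4.68 and 4.99 in PG pools, against 3.96, 3.75 and 3.61 in SC pools, all below the array medians. Among those called lower were Pdk4, a kinase that restrains pyruvate dehydrogenase (log2 difference -0.65), Atpaf1, an ATP synthase assembly factor (-0.49), Gfer, a sulfhydryl oxidase of the intermembrane-space import route (-0.47), and Higd1a, a small partner of complex IV (-0.43). The Higd1a set has 0 of its 10 nearest table rows on the gene's own chromosome, as has that of Tufm, the mitochondrial elongation factor, at a log2 difference of 0.04.

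Other list members were not called. Hadh, an enzyme of fatty acid oxidation, had a log2 difference of 0.18 and Ttc19, an assembly factor of complex III, of 0.19. Atpif1, an inhibitor of ATP synthase, stood at 0.29. Mtx1, an outer-membrane import protein, stood at -0.24, and Iars2, a mitochondrial tRNA synthetase, at -0.20. The coenzyme Q genes Coq9 and Coq3 stood at -0.32 and -0.19.

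Some markers of cell types, the sorted stromal cells among them, differed between the same pools. Only markers with a row in the table had a name, and those rows were chosen on this same contrast. Among all such rows with values 51.7% were called, against 9.51% of all probe sets, so the counts below are a description. Of 11 mesothelial markers, genes of the layer that covers visceral fat, 7 had a row and all 7 were called higher in PG. Their summed intensity was between 195 and 254 in PG and between 32.3 and 39.8 in SC. In all SC pools Upk3b, Krt7, Krt18, Wt1 and Gpm6a stood below the array medians, which were between 6.44 and 6.96. Most of the PG sum came from Wt1 alone, between 126 and 153 in PG and between 3.64 and 4.61 in SC. Which of the sorted cells carried Wt1 was not tested, so the sum is no measure of mesothelial cells. Of 8 pericyte and smooth muscle markers, 4 had a row and all 4 were called higher. Summed intensities were between 100 and 136 in PG and between 28.2 and 41.5 in SC. Every PG pool was above every SC pool. Of 7 Schwann cell markers, 3 had a row and all 3 were called lower, with sums between 18.4 and 20.7 in PG and between 50.8 and 61.4 in SC. The 1 named adipocyte marker of 9, Plin4, was called lower, between 4.77 and 6.03 in PG and between 12.8 and 18.7 in SC. Of 8 stromal markers, 4 had a row (Pdgfrb, Col1a1, Col3a1 and Thy1) and all 4 were called lower, with sums between 1200 and 1316 in PG and between 2127 and 2309 in SC. The 1 named endothelial marker of 8, Tek, was called lower, between 73.7 and 79.6 in PG and between 121 and 139 in SC. The 1 named leukocyte marker of 10, Itgam, stood between 2.41 and 2.54 in PG and between 2.29 and 2.48 in SC, below the array medians, and was not called. None of 5 erythroid markers had a row. The sort marker Ly6a, which encodes Sca1, averaged 479 ± 44.0 in PG and 552 ± 59.5 in SC (SD, n = 3 each) and was not called. Ptprc (CD45) and Pecam1 (CD31) had no name here. The part of these cell types in the members' differences was not tested.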

How the data were processed

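Expression was measured on 6 Affymetrix arrays, 3 of PG and 3 of SC pools. In the deposited value table every probe set has a linear, already normalized intensity. Per the submitters' processing notes Partek was used. The version, background correction and normalization method were not given in the sources used here. Per the file headers, the comparison table gives log2 means with their difference, a ratio, a signed fold as a score, a t score, and a p-value without adjustment from the methods' paired t-test. Recomputing that p-value from the log2 intensities, with same-numbered pools as pairs, came within 10% of the deposited value for each of the 15 members.

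Differences of log2(intensity + 1) were fitted in R 4.3.3 by lmFit and eBayes of limma 3.58.1 (pool number as a fixed block, no filter, Benjamini-Hochberg over all 23531 probe sets, threshold 0.05). The block follows the study's paired test, although the pool numbers paired the values only weakly (correlations of 0.17, 0.16 and 0.053 over all probe sets). Residual degrees of freedom were 2, with 5.24 added by the prior. Precision is limited by the number of arrays. With the block, p-values measure only how much the depot difference varied between pool pairs, with that spread drawn towards a value shared by all probe sets. Of the members and of the other lists' genes with a row, all are named except a few that are not reported here. The members and lists were chosen with earlier results of these data known. Names came from the comparison table and equalled the RefSeq symbol of GRCm38.p6 for all 15 members. Mitochondrial genome transcripts were matched to their list by the symbol in the file. Gene neighbours, overlaps and promoters came from the same RefSeq assembly. The files name no build. Alternatives changed the block, test, pseudocount, scaling, filter and pools.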

Additional observations from a re-analysis of the deposited data

How the results depend on the processing

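All 15 members kept the sign of their difference in every alternative run, except Mrps36, which was at -0.0096 without SC pool 1 and no replicate block. With no replicate block, 1 member was called higher and 3 lower, the added one being Cox7a2l. The methods' t-test called 0 higher and 0 lower after adjustment (smallest adjusted p-value 0.198, paired t-test with Benjamini-Hochberg), and 6 and 9 at an unadjusted p-value below 0.05, the rule that chose them. A pseudocount of 16 gave 2 higher and 5 lower. Leaving out a pool pair or an array gave 1 higher and between 1 and 3 lower. For the mitochondrial genome the 0 calls became 3 with a pseudocount of 16 and stayed at 0 in the fits that left out a pool pair or an array, while 7 were below 0.05 unadjusted. These counts for the mitochondrial genome and the unadjusted t-test were added after seeing the data.

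The median difference of all members (-0.23) was -0.15 with a pseudocount of 16, -0.13 after quantile normalization and between -0.25 and -0.14 over the fits that left something out. That of the assembly factors (-0.30) was -0.16 with a pseudocount of 16, -0.21 after quantile normalization and between -0.34 and -0.25 over the fits that left something out (-0.32 without pool pair 3, -0.26 without PG pool 2). For the 4 Mrps genes, Mrps36 among them (-0.41), it was -0.30 with a pseudocount of 16 and between -0.45 and -0.37 leaving something out. Complex I (0.18) lay between 0.13 and 0.22 leaving something out. Complex IV (0.02) has no settled sign: it was 0.069 after quantile normalization, -0.11 over the brighter probe sets, which drop Cox8c, and between -0.02 and 0.06 leaving something out. Over all probe sets 2238 were called, against 1189 without pool pair 1, 1376 without pool pair 2 and 0 in the methods' t-test, where 3541 were below an unadjusted 0.05. Beyond these constructions the cause was not tested. The files give no background signal, so how far dim probe sets such as Cox8c stood above it is not known.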
